A study of Mus musculus with 6 samples.

Results

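The genes of the major histocompatibility complex (MHC) and of antigen presentation were examined in RNA-Seq libraries of tumor-infiltrating regulatory T cells (Tregs) with and without Ku70. Of the 15319 gene symbols listed, 44 belonged to this group. The 29 mouse MHC genes were all listed symbols that start with H2-, apart from H2-Ke6, a gene named only for its place in the complex, and the other 15 were B2m, Tap1, Tap2, Tapbp, Tapbpl, Erap1, Calr, Canx, Pdia3, Nlrc5, Ciita, Cd74, Rfx5, Rfxap and Rfxank. By role, 30 genes served class I, 11 served class II, and 3 encode the RFX complex, which binds the promoters of both. The choice was by gene symbol and used no measured value, but it was made with earlier results of these data known.

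All mice were on a C57BL/6J background and carried the Foxp3 Yfp-Cre allele, which expresses Cre recombinase and a yellow fluorescent protein from the Treg gene Foxp3. WT mice carried this allele alone, and cKO mice were in addition Xrcc6 fl/fl, so that Xrcc6, which encodes the DNA repair protein Ku70, was deleted in cells with Cre. Mice of 8 to 10 weeks received LLC cells, a mouse lung carcinoma line, through the tail vein, and Tregs were sorted from the lung tumors 21 days later. RNA-Seq gave 3 WT and 3 cKO libraries. The number of mice behind each library is not given in the sources used here, so p-values measure the spread between these libraries, which may in part be technical.

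Total estimated counts ran from 19032642 to 23159812 per library. Levels are in CPM, the counts of a gene relative to the TMM-scaled total of its library. The detection limit was set at 3 counts, or 0.133 to 0.156 CPM by library, and covers counting error only. Each group is given in the order of its replicates 1, 2 and 3. Xrcc6 measured 20.9, 63.1 and 23.8 CPM in WT, above the 5.24, 3.51 and 4.18 CPM of cKO, as the labels have it. WT replicate 2 stood apart: 11513 genes had a count there, against 14442 to 14737 in the other 5 libraries. Values are therefore given with and without it. The summed level of 8 T cell and Treg genes, Foxp3 among them, was 4392 to 6145 CPM.

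MHC class I molecules pair a heavy chain with beta-2 microglobulin (B2m) and display peptides from inside the cell to CD8+ T cells. The TAP transporter moves the peptides into the endoplasmic reticulum, where tapasin and chaperones load them, and NLRC5 drives transcription of the class I genes. Class II molecules pair an alpha with a beta chain, and the invariant chain Cd74 at first keeps other peptides from binding. Class II molecules then take up peptides under the control of H2-DM and H2-O, and their genes depend on the transactivator CIITA. Nearly every nucleated cell makes class I, whereas class II is known mainly from B cells, macrophages and dendritic cells.

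Class I heavy chain genes arose by duplication, and part of the count of one copy can belong to another. The first 90 of the 270 bases of exon 2, which encodes part of the peptide groove, are shown for 5 abundant heavy chains to let this likeness be seen. Sequences are from GRCm38 with the exons of GENCODE vM21, and capitals mark bases that differ from H2-K1.
H2-K1, chr17:33999914-34000003, minus strand: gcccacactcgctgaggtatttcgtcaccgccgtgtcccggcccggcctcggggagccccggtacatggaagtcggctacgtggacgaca
H2-D1, chr17:35263379-35263468, plus strand: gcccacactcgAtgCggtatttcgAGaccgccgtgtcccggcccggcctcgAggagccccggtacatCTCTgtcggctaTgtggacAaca
H2-Q6, chr17:35425108-35425197, plus strand: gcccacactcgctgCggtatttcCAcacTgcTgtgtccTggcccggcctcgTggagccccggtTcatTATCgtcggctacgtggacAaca
H2-Q7, chr17:35439452-35439541, plus strand: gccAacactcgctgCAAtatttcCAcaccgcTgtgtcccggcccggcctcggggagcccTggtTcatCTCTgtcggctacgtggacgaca
H2-T23, chr17:36032333-36032422, minus strand: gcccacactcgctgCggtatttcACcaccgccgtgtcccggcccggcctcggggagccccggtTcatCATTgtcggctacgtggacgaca

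Over these stretches, 8 to 13 bases differed from H2-K1. Over the whole exon, H2-D1 differed from H2-K1 at 24 bases, H2-T23 at 36, and H2-Q6 from H2-Q7 at 19. An exact stretch of 150 bases, the read length, was shared with a transcript of another gene in 11.6% of the windows of H2-Q7 and 5.99% of those of H2-Q6. The share was 1.79% for H2-D1 and 0 for H2-K1. H2-Q8, H2-Q9 and H2-T18 were not found in the annotation and had no window count. Windows that other genes share only with these were not counted either, so the shares can be too low. The deposited counts themselves were not whole numbers in 16 of 18 nonclassical class I heavy chains and in both classical ones, against 26.9% of all genes, and in 0 of 4 class II chains. Levels of single H2-Q genes are therefore uncertain, and sums over the copies are given beside them.

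The upstream sequence of 5 genes is shown because the regulators of both classes act there. Each line holds the 150 bases before the RefSeq start in GRCm38.p6, 5' to 3' on the strand of the gene. Capitals mark matches, on either strand, to AGCAAC (the core of the X1 box bound by RFX), CCAAT (the Y box, ATTGG when read on the other strand), TGACGC (site alpha of class I promoters) or GAAANNGAA (an interferon-stimulated response element), and no match overlaps another.
H2-Aa, chr17:34287824-34287973, minus strand: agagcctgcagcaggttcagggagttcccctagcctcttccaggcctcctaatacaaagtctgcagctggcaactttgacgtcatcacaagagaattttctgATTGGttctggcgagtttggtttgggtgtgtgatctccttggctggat
H2-Eb1, chr17:34305717-34305866, plus strand: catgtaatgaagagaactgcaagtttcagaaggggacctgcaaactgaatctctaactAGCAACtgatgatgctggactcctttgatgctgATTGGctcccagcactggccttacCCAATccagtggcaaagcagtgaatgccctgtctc
H2-K1, chr17:34000348-34000497, minus strand: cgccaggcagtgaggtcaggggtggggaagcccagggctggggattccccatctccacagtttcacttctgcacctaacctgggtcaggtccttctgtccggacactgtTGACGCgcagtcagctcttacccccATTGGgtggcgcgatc
H2-D1, chr17:35262944-35263093, plus strand: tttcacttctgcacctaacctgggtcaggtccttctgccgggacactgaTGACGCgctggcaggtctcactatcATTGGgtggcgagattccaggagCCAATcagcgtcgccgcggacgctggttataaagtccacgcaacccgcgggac
B2m, chr2:122147537-122147686, plus strand: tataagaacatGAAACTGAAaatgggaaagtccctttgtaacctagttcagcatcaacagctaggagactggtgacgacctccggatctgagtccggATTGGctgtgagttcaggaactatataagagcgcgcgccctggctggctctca

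RefSeq promoters of 300 bases around the start were found for 30 of the 44 genes, 32 promoters in all. CCAAT was present in 28 of the 32, against 37.4% of 32817 promoters of this length. AGCAAC was present in 9 (14.8% of all promoters), TGACGC in 6 (7.39%) and GAAANNGAA in 4 (8.55%). TGACGC lay upstream of both classical heavy chains, H2-K1 and H2-D1, AGCAAC upstream of H2-Eb1 and not in the letters shown for H2-Aa, and GAAANNGAA upstream of B2m. A match is a description of the letters and not a bound site. H2-Ab1, Cd74, Ciita and Nlrc5 were not in the promoter table.

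The first question was whether single class I or class II genes differed between cKO and WT. Neither class was tested as a whole. None of the 44 genes was called by edgeR (quasi-likelihood fit, p adjusted after Benjamini and Hochberg) at an adjusted p of 0.05. With all 6 libraries 0.0% of 15315 genes passed, and without WT replicate 2 it was 0.00654% of 15302 genes. The edgeR adjusted p of the 44 genes was 0.984 to 0.996 with all libraries and 0.997 to 0.999 without WT replicate 2. For the deleted gene Xrcc6 the log2 fold change was -3.06 (edgeR adjusted p = 0.984), and -2.38 (edgeR adjusted p = 0.0196) without WT replicate 2. With all libraries the adjusted test thus did not call even Xrcc6, so the lack of calls among the 44 is not evidence of no change. By edgeR's unadjusted p under 0.05, 1 of the 44 was called, the class I transactivator Nlrc5, against 1.81% of all genes, a share near the background. Without WT replicate 2 it was 0 of 44 by this unadjusted p, against 3.01% of all genes. DESeq2 on all 6 libraries called no member at an adjusted p under 0.05 and 1 of the 44, Nlrc5, by its unadjusted p.

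Class I genes had fitted values on both sides of 0: 18 of 30 had a higher and 12 a lower fitted level in cKO, with a median log2 fold change of 0.03 (cKO over WT). The median over the 22 of them with a mean of at least 10 CPM was also 0.03. Without WT replicate 2 the counts were 12 higher and 18 lower with a median of -0.08. Class II genes had higher fitted levels in cKO in 11 of 11, with a median of 0.33, and in 9 of 11 without WT replicate 2, with a median of 0.69. Over all genes tested, 8343 were higher and 6972 lower, with a median of 0.04, and -0.01 without WT replicate 2. These counts describe the fitted direction only, since none of the 11 class II genes passed even the unadjusted edgeR threshold. The class II genes are also not separate measurements, because several of them followed each other from library to library.

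**Figure D1:**
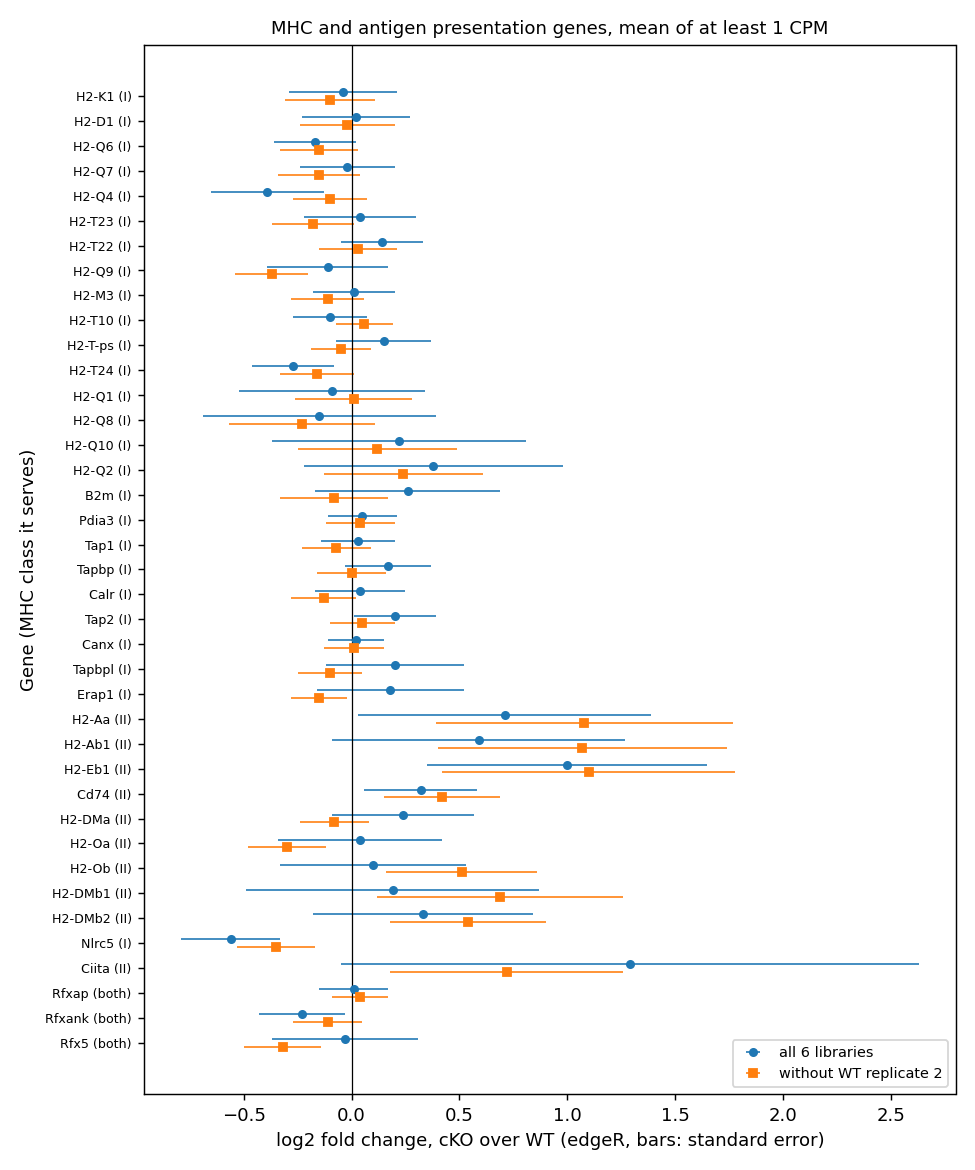
Log2 fold changes of cKO over WT from edgeR (x axis) for the 39 genes with a mean of at least 1 CPM (y axis, with the class each serves), with all 6 libraries (circles) and without WT replicate 2 (squares); bars are standard errors. The class I genes lie close to 0, Nlrc5 lies at -0.56, and the class II chains lie to the right with wide bars.

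The classical heavy chains H2-K1 and H2-D1, which present peptides to CD8+ T cells, were among the most abundant mRNAs. H2-K1 (chr17:33996017-34000347, minus strand) was at 5660, 4770 and 5050 CPM in WT and at 5210, 5020 and 4810 CPM in cKO. The groups overlapped, and the cKO values lay inside the WT range. The means were 5160 ± 458 CPM in WT and 5020 ± 202 CPM in cKO (SD, n = 3 each). Its log2 fold change was -0.04 (SE 0.25, edgeR adjusted p = 0.994), and -0.10 (SE 0.21) without WT replicate 2.

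H2-D1 (chr17:35262730-35267499, plus strand) was at 4920, 4120 and 4180 CPM in WT and at 4050, 4940 and 4430 CPM in cKO. These ranges were nearly the same, and the log2 fold change was 0.02 (SE 0.25). When H2-K1 and H2-D1 were summed before the fit, the value was -0.01 (SE 0.29), and -0.06 (SE 0.23) without WT replicate 2. By the exact two-sided permutation test p was 0.8 for H2-K1 and 0.9 for H2-D1, where 0.1 is the smallest that 3 libraries against 3 allow. H2-D1 stood at 0.777 to 0.982 of the H2-K1 level in every library. Per kilobase of transcript, H2-K1 ranked 18 and H2-D1 41 among 14780 genes with a known length, at mean levels of 3140 and 2110 CPM per kilobase.

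Of the 18 nonclassical class I heavy chains, 8 were higher and 10 lower in cKO by the fitted level, and none passed the unadjusted edgeR threshold with or without WT replicate 2. H2-Q6, a gene of the Qa-2 group, was at 1250, 1400 and 1400 CPM in WT and at 1310, 1140 and 1150 CPM in cKO, with overlapping groups and a log2 fold change of -0.17 (SE 0.19). H2-Q7, which also encodes Qa-2, was at 1200, 801 and 995 CPM in WT and at 892, 1090 and 986 CPM in cKO, with a log2 fold change of -0.02 (SE 0.22). H2-Q4 was at 591, 1080 and 711 CPM in WT and at 676, 554 and 591 CPM in cKO. Its highest value was that of WT replicate 2, and its log2 fold change went from -0.39 (SE 0.26) to -0.10 (SE 0.17) without this library.

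Reads that a counting program could divide among H2-Q6, H2-Q7, H2-Q8 and H2-Q9 were summed, which gave 2844, 2398 and 2752 CPM in WT and 2546, 2487 and 2391 CPM in cKO. This sum overlapped between the groups and its log2 fold change was -0.11 (SE 0.21), and -0.18 (SE 0.19) without WT replicate 2. Within the group the division was less even: H2-Q7 stood at 0.571 of H2-Q6 in WT replicate 2 and at 0.681 to 0.962 in the other libraries. H2-Q9 stood at 0.136 of H2-Q6 there and at 0.224 to 0.309 elsewhere. All 20 heavy chain genes together gave 13231 to 15365 CPM, a highest library 1.16 times the lowest. The other nonclassical genes had means of 44.0 (H2-T24) to 564 CPM (H2-T23) for 7 genes, among them H2-T22, H2-M3, H2-T10 and the pseudogene H2-T-ps, and of 1.95 to 5.05 CPM for H2-Q1, H2-Q2, H2-Q8 and H2-Q10. H2-M2 and H2-Bl were lower still, with means of 0.37 and 0.111 CPM. H2-T18 and H2-T3 were at or under 3 counts in every library.

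B2m (chr2:122147686-122153083, plus strand), the light chain shared by all class I molecules, had the highest level per kilobase of the 14780 genes, 8070 CPM per kilobase on average. It was at 8560, 2940 and 7460 CPM in WT and at 6590, 8920 and 7140 CPM in cKO. WT replicate 2 was far below the other 5 libraries, which overlapped. The log2 fold change of B2m was 0.26 (SE 0.43), and -0.08 (SE 0.25) without WT replicate 2, so that its sign turned with 1 library, and the exact permutation p was 0.7. H2-K1 did not share this dip, with a ratio of B2m to H2-K1 of 0.618 in WT replicate 2 and 1.26 to 1.78 elsewhere. Among the other heavy chains WT replicate 2 stood at 0.931 of the median of the other libraries for H2-D1, at 0.65 for H2-T23 and at 1.83 for H2-Q4, against 0.395 for B2m.

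The other 8 genes of class I loading encode the peptide transporter (Tap1, Tap2), tapasin and its relative (Tapbp, Tapbpl), chaperones (Calr, Canx), the oxidoreductase ERp57 (Pdia3) and the peptide-trimming enzyme Erap1. Tap1 was at 438, 322 and 365 CPM in WT and at 410, 383 and 357 CPM in cKO, a log2 fold change of 0.03 (SE 0.17). Pdia3 was at 502, 460 and 430 CPM in WT and at 465, 514 and 458 CPM in cKO, with a log2 fold change of 0.05 (SE 0.16). Catsper2 overlaps Pdia3 on the opposite strand, and the sources used here do not say if reads were counted by strand. The remaining 6 had mean levels of 87.3 CPM (Erap1) to 359 CPM (Tapbp). With B2m, all 9 genes of this group had a higher fitted level in cKO with all 6 libraries (range 0.02 to 0.26, median 0.17), and 4 of 9 without WT replicate 2 (median -0.07). None of the 9 passed the unadjusted edgeR threshold either way.

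**Figure D2:**
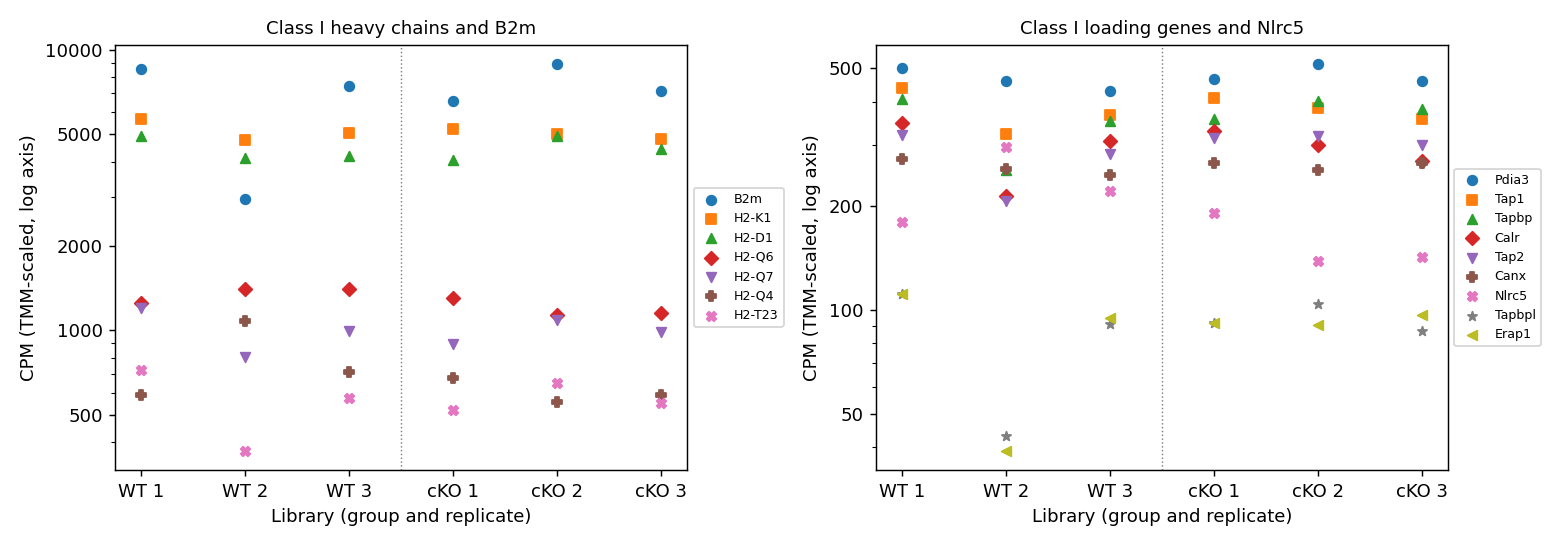
CPM on a log axis (y) in each library (x) of B2m and 6 class I heavy chains (left) and of 8 class I loading genes with Nlrc5 (right); each marker is 1 gene in 1 library. The levels are nearly flat except in WT replicate 2, where B2m stands at 2940 CPM, H2-T23, Tapbpl and Erap1 are lowest, and Nlrc5 and H2-Q4 are highest.

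Class I levels were steady once this library was left out. Among the 22 class I genes with a mean of at least 10 CPM, the highest of the remaining 5 libraries was 1.11 to 1.6 times the lowest (median 1.26), against a median of 1.33 over 8447 genes with that mean. With all 6 libraries the range was 1.11 to 3.03 (median 1.53). WT replicate 2 was the lowest library in 14 of the 22 (63.6%) and the highest in 5, against 39.6% and 37.6% of genes at that level. The summed CPM of all 30 class I genes was 26617, 18267 and 23649 in WT and 22626, 25692 and 22853 in cKO, so that the WT mean and its spread (22844 ± 4230) covered the cKO mean (23724 ± 1710).

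Nlrc5 (chr8:94434356-94527272), the transactivator of class I promoters, was the single gene of the 44 under an unadjusted p of 0.05. It was at 179, 296 and 220 CPM in WT and at 191, 138 and 142 CPM in cKO. The groups overlapped, because cKO replicate 1 was above WT replicate 1. The means were 232 ± 59.6 CPM in WT and 157 ± 29.7 CPM in cKO (SD, n = 3 each), with a log2 fold change of -0.56 (SE 0.23, edgeR adjusted p = 0.984). Among all genes, 0.868% were lower in cKO at this unadjusted threshold. For Nlrc5 the permutation p, exact and two-sided, was 0.2.

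The difference of Nlrc5 rested in part on WT replicate 2, its highest library. Without it the log2 fold change was -0.35 (SE 0.18), above the unadjusted edgeR threshold. DESeq2 gave -0.56 with all libraries, under the same unadjusted threshold, and -0.35 without WT replicate 2, above it. The value was negative in every fit, and it was -0.59 without WT replicate 3, -0.48 without cKO replicate 2 and -0.49 without cKO replicate 3, each above an unadjusted edgeR p of 0.05. The heavy chains whose promoters NLRC5 is known to drive, H2-K1 and H2-D1, had log2 fold changes of -0.04 and 0.02.

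Class II chains were present at far lower levels than class I and differed among libraries of the same group. H2-Aa (chr17:34282744-34287823, minus strand), the alpha chain of I-A, was at 29.0, 115 and 95.3 CPM in WT and at 33.4, 164 and 194 CPM in cKO. Replicate 1 was low in both groups, and the groups overlapped. The means were 79.8 ± 45.2 CPM in WT and 130 ± 85.4 CPM in cKO (SD, n = 3 each). The log2 fold change of H2-Aa was 0.71 (SE 0.68, edgeR adjusted p = 0.984), and 1.08 (SE 0.69) without WT replicate 2.

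H2-Ab1 (chr17:34257689-34269419, plus strand), the beta chain of I-A, showed the same order of libraries, with 24.7, 111 and 79.1 CPM in WT and 29.7, 134 and 160 CPM in cKO. Its log2 fold change was 0.59 (SE 0.68), and 1.07 (SE 0.67) without WT replicate 2. H2-Eb1 (chr17:34305867-34316674, plus strand), the gene of the beta chain of I-E, was at 24.5, 59.8 and 75.9 CPM in WT and at 27.1, 134 and 160 CPM in cKO. No gene of the alpha chain of I-E was among the listed H2- symbols, so the H2-Eb1 mRNA does not show that an I-E molecule was made. The log2 fold change of H2-Eb1 was 1.00 (SE 0.65), and 1.10 (SE 0.68) without WT replicate 2. The exact two-sided permutation p was 0.4 for H2-Aa, 0.5 for H2-Ab1 and 0.3 for H2-Eb1.

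The 3 chains kept their proportions while their levels changed. H2-Ab1 stood at 0.818 to 0.967 of H2-Aa, and H2-Eb1 at 0.797 to 0.847 of H2-Aa apart from WT replicate 2, where it stood at 0.519. Each chain was 6.5 to 6.7 times higher in its highest than in its lowest library, with or without WT replicate 2. A span of 5 times or more was seen in 4.29% of 8395 genes at this level over all 6 libraries, and in 0.639% of 8447 genes without WT replicate 2. Leaving out cKO replicate 1, a library with low class II, took H2-Eb1 to 1.46 (SE 0.44, under the unadjusted threshold, with an edgeR adjusted p of 0.996), and leaving out WT replicate 1 took it to 0.66 (SE 0.67).

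**Figure D3:**
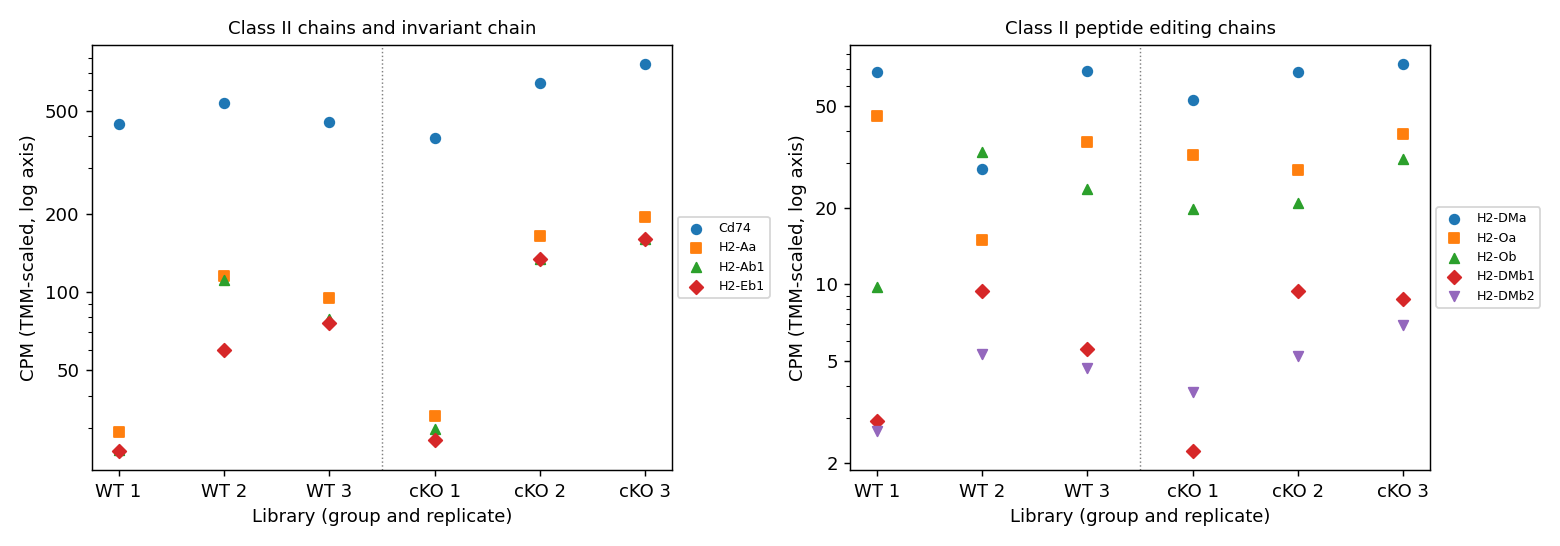
CPM on a log axis (y) in each library (x) of Cd74, H2-Aa, H2-Ab1 and H2-Eb1 (left) and of 5 peptide editing chains (right); each marker is 1 gene in 1 library. H2-Aa is at 29.0 and 33.4 CPM in the replicates numbered 1 and at 95.3 to 194 CPM in the other 4 libraries, and the difference is smaller for Cd74.

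H2-Eb2, a second E beta gene with little known expression, was at 3, 0 and 2 counts in WT and at 5, 3 and 15 counts in cKO. All WT libraries were at or under the limit of 3 counts, so no fold is given. It was the single gene of the 44 whose CPM did not overlap between the groups, against 8.24% of all genes tested. WT replicate 1 and cKO replicate 2 both had 3 counts (0.143 and 0.144 CPM), so the gap came from the library scaling alone and the counts touched.

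Cd74, the invariant chain, was the most abundant class II gene, and its level varied less than that of the chains. It was at 443, 534 and 453 CPM in WT and at 394, 641 and 756 CPM in cKO, with the lowest value in a cKO library. The log2 fold change of Cd74 was 0.32 (SE 0.26), 0.42 (SE 0.27) without WT replicate 2, and 0.55 (SE 0.21, under the unadjusted threshold, with an edgeR adjusted p of 0.996) without cKO replicate 1. Cd74 counts were 15.3 and 11.8 times those of H2-Aa in WT replicate 1 and cKO replicate 1, the libraries with the least class II, and 3.89 to 4.76 times in the other 4.

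The peptide editing chains did not all follow H2-Aa. H2-DMa, the alpha chain of the peptide exchange factor H2-DM, was at 67.8, 28.3 and 68.6 CPM in WT and at 52.6, 68.2 and 73.0 CPM in cKO, lowest in WT replicate 2, where H2-Aa was high. H2-Oa, the alpha chain of the H2-DM inhibitor H2-O, was at 45.5, 14.9 and 36.0 CPM in WT and at 32.2, 28.1 and 39.0 CPM in cKO, also lowest there. Their log2 fold changes were 0.24 (SE 0.33) and 0.04 (SE 0.38), and -0.08 and -0.30 without WT replicate 2. The beta chains went the other way among the WT libraries: H2-Ob (9.80, 32.9 and 23.7 CPM) and H2-DMb1 (2.92, 9.45 and 5.58 CPM) were lowest in WT replicate 1 and highest in WT replicate 2. In cKO, H2-Ob was at 19.7, 20.8 and 30.9 CPM and H2-DMb1 at 2.23, 9.42 and 8.76 CPM. H2-DMb2 was at 2.68, 5.36 and 4.69 CPM in WT and at 3.80, 5.24 and 6.94 CPM in cKO. H2-Ob, H2-DMb1 and H2-DMb2 were thus lowest in replicate 1 of each group, as H2-Aa was. H2-DMb1 and H2-DMb2 shared 5.74% and 5.65% of their windows of 150 bases with each other.

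Ciita (chr16:10480059-10528418), the class II transactivator, was low in 5 libraries and at 0 in the other. It was at 1.96, 0 and 3.34 CPM in WT and at 1.72, 4.61 and 6.67 CPM in cKO, where the 0 in WT replicate 2 allows up to 0.141 CPM. The class II chains were present in WT replicate 2 at 59.8 to 115 CPM all the same. The log2 fold change of Ciita was 1.29 (SE 1.34), and 0.72 (SE 0.54) without this library. Per kilobase, Ciita ranked 10907 of 14780 genes and Nlrc5 2750, at mean levels of 0.508 and 25.7 CPM per kilobase.

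The genes of the RFX complex, which both classes need, overlapped between the groups in 3 of 3 cases. Rfxap was at 31.8, 32.0 and 27.9 CPM in WT and at 31.5, 31.5 and 29.2 CPM in cKO, with a log2 fold change of 0.01 (SE 0.16). Rfxank was at 29.0, 35.7 and 27.1 CPM in WT and at 21.8, 27.8 and 28.6 CPM in cKO, with a log2 fold change of -0.23 (SE 0.20). Rfx5 was at 32.3, 13.4 and 26.5 CPM in WT and at 28.2, 19.3 and 23.1 CPM in cKO, lowest in WT replicate 2, and its log2 fold change was -0.03 (SE 0.34).

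Macrophage and B cell markers were low in the same libraries as the class II chains. The summed CPM of H2-Aa, H2-Ab1 and H2-Eb1 was 78.2, 286 and 250 in WT and 90.2, 432 and 515 in cKO. All 10 macrophage and monocyte markers had counts, and their sum was 195, 732 and 754 CPM in WT and 252, 609 and 1138 CPM in cKO. WT replicate 1 and cKO replicate 1 were the lowest and cKO replicate 3 the highest in both, while cKO replicate 2 was below WT replicates 2 and 3 for the markers and above them for class II. Csf1r, the receptor for macrophage growth factor, was at 6.21, 32.9 and 37.0 CPM in WT and at 8.72, 39.4 and 85.7 CPM in cKO, and the ratio of H2-Aa to Csf1r was 2.27 to 4.66.

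The 9 B cell markers summed to 17.9, 33.8 and 29.7 CPM in WT and to 14.8, 37.7 and 58.0 CPM in cKO, with the same libraries low and high. Of the defining B cell genes, Pax5 was at 0 in WT replicates 1 and 2 and cKO replicate 1, and Ms4a1 was at 0 in WT replicate 2. The B cell genes were not in step in WT replicate 2, where Cd79a was at 10.5 CPM and Cd79b at 0.188 CPM. The 3 plasma cell markers did not share an order: Jchain was at 41.7 CPM in WT replicate 2 and at 0.287 to 3.87 CPM elsewhere, whereas Mzb1 and Sdc1 were at 0 there. The 8 dendritic cell markers summed to 49.7, 17 and 30.6 CPM in WT and to 35.8, 31.5 and 28.3 CPM in cKO, a sum carried by Zbtb46 and Xcr1, both highest in WT replicate 1. Siglech, in the same list, was low in the replicates numbered 1 (0.86 and 0.139 CPM) and at 3.41 to 8.51 CPM in the other 4, and Cd209a had counts in cKO replicates 2 and 3 alone. The part of such cells in the class II values was not tested, and in sorted bulk RNA the number of cells of a type and the RNA each holds cannot be told apart. The level of T cell and Treg genes did not have this order: Foxp3 was at 241, 150 and 208 CPM in WT and at 282, 189 and 242 CPM in cKO. Foxp3, Il2ra and Ikzf2 were highest in replicate 1 of each group, where class II was lowest. Within their groups, Cd3d, Cd3e, Cd3g and Cd4 were highest in WT replicate 1 but lowest in cKO replicate 1. Ctla4 was highest in replicate 2 of each group.

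**Figure D4:**
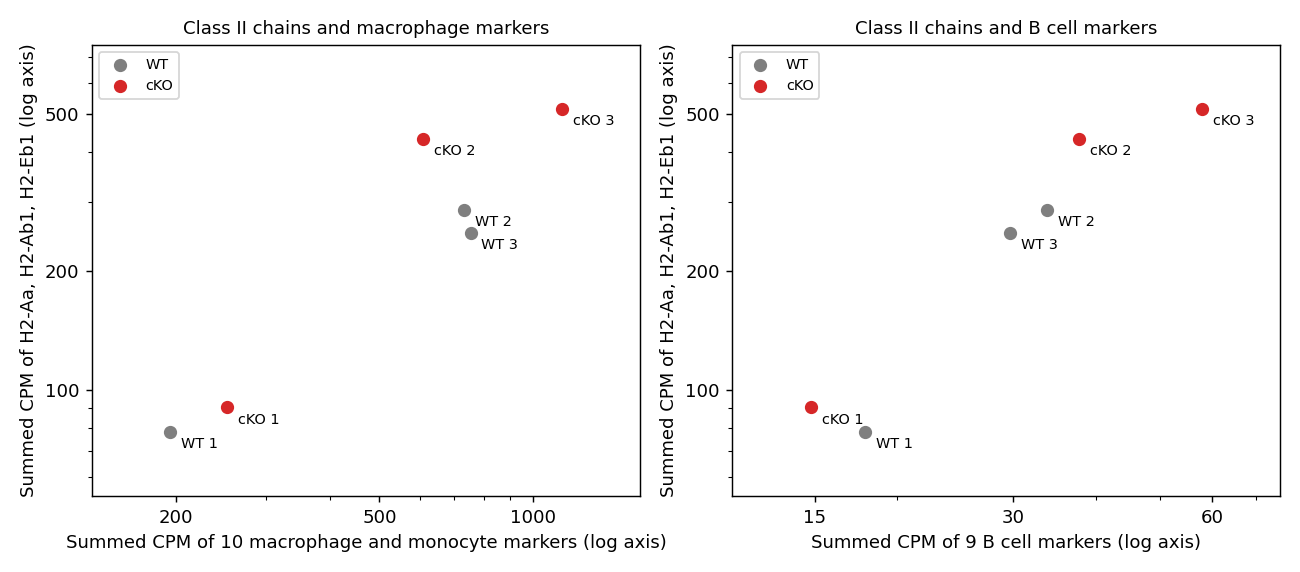
Summed CPM of H2-Aa, H2-Ab1 and H2-Eb1 (y, log axis) against the summed CPM of 10 macrophage and monocyte markers (left) and 9 B cell markers (right, both log axes); each point is 1 library, grey for WT and red for cKO. WT replicate 1 (78.2 CPM) and cKO replicate 1 (90.2 CPM) lie together at the lower left of both panels, and cKO replicate 3 (515 CPM) lies at the upper right.

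The mean of the summed class II chains was 1.69 times as high in cKO as in WT, and 2.1 times without WT replicate 2, while the lowest cKO library was below 2 of the 3 WT libraries. For all 11 class II genes together, which Cd74 dominates, the sums were 652, 912 and 846 CPM in WT and 597, 1209 and 1436 CPM in cKO, with means of 803 ± 135 and 1081 ± 434 CPM (SD, n = 3 each) and a ratio of 1.35. The corresponding ratio for class I was 1.04, and 0.944 without WT replicate 2. Neutrophil markers (9.99 to 20.5 CPM), lung epithelium markers (12.3 to 32.4 CPM) and CD8 T and NK cell markers (5.22 to 21.7 CPM) had small sums in every library. Of the 6 neutrophil markers, 4 were higher and 2 lower in cKO. The unadjusted edgeR threshold was passed by 2 (1.81% of all genes), the adjusted one by 0. S100a9 was at 0.0956, 0 and 0.208 CPM in WT, with 2, 0 and 4 counts near the detection limit, and at 1.11, 1.35 and 1.91 CPM in cKO. Retnlg was at 0 in all WT libraries and at 0.882, 0.625 and 1.51 CPM in cKO. Cxcr2 went the other way, at 7.55, 9.54 and 10.4 CPM in WT and at 7.84, 5.72 and 4.8 CPM in cKO. S100a8 overlapped between the groups and was highest in WT replicate 2 (7.05 CPM), and Csf3r overlapped as well. Ly6g had at most 3 counts in any library.

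The remaining genes of the pathways, taken from lists of presentation genes outside the 44, gave no call. For class I, 17 genes had counts, which included the immunoproteasome subunits Psmb8, Psmb9 and Psmb10, the proteasome activators Psme1 and Psme2, and the interferon signaling genes Irf1 and Jak1. Of these, 8 were higher and 9 lower in cKO with a median log2 fold change of -0.02, and 0 passed the unadjusted edgeR threshold in either direction, with or without WT replicate 2. The smallest unadjusted edgeR p was that of Jak2, a kinase of the interferon-gamma receptor, with a log2 fold change of -0.56 (SE 0.27, edgeR adjusted p = 0.984), and -0.19 without WT replicate 2. For class II, 14 of 17 genes were higher and 3 lower with a median of 0.10, and 8 of 17 were higher without WT replicate 2 with a median of -0.01; again 0 passed. Lgmn, a lysosomal protease that macrophages express, had the smallest p of that list with all libraries, with a log2 fold change of 0.91 (SE 0.43, edgeR adjusted p = 0.984), and 0.86 without WT replicate 2.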

How the data were processed

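RNA-Seq of sorted tumor-infiltrating Tregs gave 3 WT and 3 cKO libraries. The authors deposited a table of estimated counts, 1 row a gene symbol, which was not normalized. The submitters' processing notes name GRCm38, Bowtie2 (version 2.3.4.3) and RSEM (version 1.3.1), and RSEM divides reads that fit several genes by an estimate. The annotation and strand setting are not given in the sources used here. The counts were rounded, and 15315 genes with at least 1 count were compared between cKO and WT with edgeR's quasi-likelihood test (version 4.0.16, TMM scaling, R 4.3.3) and Benjamini-Hochberg adjustment over all of them. Exact permutation tests were two-sided. Positions and transcript lengths came from GENCODE vM21, where 41 of 44 genes were found. Alternatives were DESeq2 (version 1.42.0), limma's voomWithQualityWeights (version 3.58.1), other scalings, filterByExpr with a minimum count of 10, the replicate number as a block and each library left out. Summing the class I copies was added after seeing the data.

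Values in every library were given for the 3 most abundant genes of each role, for H2-K1, H2-D1, B2m, Nlrc5, H2-Aa, H2-Ab1, H2-Eb1, Cd74 and Ciita, and for genes under an unadjusted p of 0.05. H2-Eb2, H2-Ob, H2-DMb1, H2-DMb2, the nonclassical genes given by range, H2-Q9, H2-T24, Jak2 and Lgmn were named after their values were seen. So were single genes of the macrophage, B cell, plasma cell, dendritic cell, neutrophil and T cell marker lists. The genes, roles and lists were chosen with earlier results of these data known. Of the 44 genes, 39 passed filterByExpr. In a simulation of all 6 libraries, 200 of 15258 genes were shifted by 2 on the log2 scale. At an adjusted p under 0.05, edgeR recovered 126 with 8 unchanged genes called, and DESeq2 recovered 155 with 74 unchanged genes called. All libraries were drawn with the same spread per gene, so a library that stands apart, such as WT replicate 2, was not simulated. Smaller shifts were not simulated either. No pair of replicates agreed within sampling noise, and all 6 libraries were counted as separate samples.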

Additional observations from a re-analysis of the deposited data

How the results depend on the processing

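The log2 fold change of Nlrc5 was negative in every alternative. Over all genes, those under an adjusted p of 0.05 numbered 0 in edgeR, 2 in DESeq2, 3 in DESeq2 without WT replicate 2, 1 in edgeR without WT replicate 2 also with the class I copies summed, and 0 to 1 over edgeR fits without each library in turn. None of the 44 was among them. By the unadjusted p the count was 277, and 140 with filterByExpr, 543 with voomWithQualityWeights, 461 with class I copies summed and WT replicate 2 left out, and 65 (without cKO replicate 3) to 874 (without WT replicate 1) when each library was left out. The class I count of 1, Nlrc5, was 0 with library size only, 0 with copies summed and WT replicate 2 left out, and 0 to 2 over the libraries left out. Without WT replicate 1 it was 2 (H2-T24 and Nlrc5), and it was 0 without WT replicate 2, WT replicate 3, cKO replicate 2 or cKO replicate 3. DESeq2 without WT replicate 2 also called 1, but it was H2-Q9. The class II count of 0 became 2 (H2-Eb1 and Cd74) without cKO replicate 1 and ranged from 0 to 2. The causes were not tested. The medians ran from -0.08 to 0.15 for class I and from 0.14 to 0.69 for class II. Replicate numbers were shared by the groups, but the labels do not name pairs. The deviations of same-numbered libraries correlated at 0.14, -0.0189 and 0.216, and those of differently numbered libraries at -0.217 to 0.0618. The main fit did not take the numbers as pairs, and these correlations do not settle whether they were. With the replicate block, 85 genes passed the unadjusted p, 0 of class I and 2 of class II. These were H2-Aa (0.58, SE 0.21) and H2-Eb1 (0.80, SE 0.25), both with an edgeR adjusted p of 0.986. Genes at a few counts, such as H2-T3, H2-T18 and H2-Eb2, limit what this depth can show, and 3 libraries a group limit the rest.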
